A study of Mus musculus with 8 samples.

Results

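Fibronectin, the thrombospondins, the tenascins, periostin and the SPARC family were examined as 10 genes, chosen by name from the matricellular and fibronectin group: *Fn1*, *Thbs1*, *Thbs2*, *Thbs3*, *Tnc*, *Tnxb*, *Postn*, *Sparc*, *Sparcl1* and *Smoc2*. All 10 were among the 31053 genes with counts, and 9 of them were among the 10181 genes with enough counts to be tested. *Tnxb* was the exception. The cells were fibro/adipogenic progenitors (FAPs), the mesenchymal cells that support muscle repair and can turn into adipocytes or matrix-producing cells, from hind limb muscles of mice of the strain C57BL/10ScSn-Dmdmdx/J at 45 days of age. All samples thus carry the *mdx* mutation of dystrophin, and no wild type FAPs were sequenced. Cells negative for CD45, CD31 and ITGA7 were sorted by surface SCA-1 into SCA1-High-FAPs and SCA1-Low-FAPs and then grown for 5 days in growth medium (GM), with no adipogenic or fibrogenic induction, giving 4 samples of each cell state. By the study's description both cell states came from the same set of 4 mice, so the 8 samples are not from 8 separate animals.

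Matricellular proteins are secreted into the extracellular matrix but serve less as building material than as signals. They bind integrins and other receptors, growth factors and structural fibres, and they are known for their induction in wounds and in regenerating or fibrotic muscle. Fibronectin is the fibril that cells assemble first and on which collagens and several matricellular proteins are then laid down.

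Sequencing of 3′ tags gave 1880561 to 3985656 counts on genes per sample. A transcript yields tags near its 3′ end whatever its length, so CPM, the counts of a gene relative to the TMM-adjusted total of the tested genes, are used below both for 1 gene across samples and for different genes. The level of 3 counts, taken as the least that can be seen, was 0.792 to 1.63 CPM on this scale and covers counting error only. The groups were compared with the quasi-likelihood test of edgeR, and all adjusted p-values below are from it unless DESeq2 is named. A gene was called at an adjusted p under 0.05, by the Benjamini-Hochberg method over all tested genes, with a log2 fold change above 0.5 or under −0.5, where a positive value means more mRNA in SCA1-Low-FAPs. By this rule 782 genes, 7.68% of those tested, were called, and the median log2 fold change of all tested genes was 0.0003. Of the FAP markers *Pdgfra* was present in all samples, at 177 to 291 CPM in SCA1-High-FAPs and 157 to 188 CPM in SCA1-Low-FAPs, while *Dpp4* was at 0 in all of them. Of 8 FAP markers 6 were tested and 3 were called, with a median log2 fold change of −0.72. *Dcn*, the decorin gene, was at 366 to 1037 CPM in SCA1-High-FAPs against 89.8 to 209 CPM (log2 fold change −2.08, adjusted p = 0.0167, called in 6 of 8 fits that left out a sample), and *Col3a1*, a collagen gene, was at 3974 to 5820 CPM against 1561 to 3974 CPM (−1.03, adjusted p = 0.0294, called in 2 of 8). Both are in the direction of *Fn1* and *Postn* below. *Ly6a*, which encodes SCA-1, was at 492 to 919 CPM in SCA1-High-FAPs but at 1014 to 1156 CPM in SCA1-Low-FAPs after culture, opposite to the surface level at the sort (log2 fold change 0.61, adjusted p = 0.0341, and between 0.0513 and 0.0947 when any sample but SCA1-High-FAPs replicate 4 was left out, and 0.0573 with the replicate number as a block). Summed over 6 adipocyte markers the level was 1075 to 5661 CPM in SCA1-High-FAPs and 110 to 610 CPM in SCA1-Low-FAPs, with *Lep* at 0. Of the 6, 4 were tested and 2 were called. These were *Adipoq* (log2 fold change −4.72, adjusted p = 0.0352, called in 2 of 8 fits that left out a sample) and *Car3* (−5.77, adjusted p = 0.0286). *Plin1* (−2.45, adjusted p = 0.0751) and *Fabp4* (−2.77, adjusted p = 0.101) were not called. Over 6 pericyte and smooth muscle markers it was 25.3 to 44.7 CPM and 27.3 to 67.0 CPM, but the 3 tested ones were all called and in different directions. *Cspg4* (log2 fold change 2.40, adjusted p = 0.0415) and *Myh11* (1.85, adjusted p = 0.0232) were higher in SCA1-Low-FAPs, in the direction of *Smoc2* and *Itga5* below, and *Notch3* (−1.54, adjusted p = 0.0487) was higher in SCA1-High-FAPs. With a sample left out these calls held in 2, 5 and 1 of 8 fits. Levels were low, and *Cspg4* overlapped, at 1.36 to 7.06 CPM in SCA1-High-FAPs and 2.54 to 32.5 CPM in SCA1-Low-FAPs. *Myh11* was at 2.20 to 9.42 CPM and 11.1 to 39.7 CPM. Of those not tested, *Rgs5* and *Mcam* had means of 3.28 and 5.58 CPM in SCA1-High-FAPs and 1.91 and 2.47 CPM in SCA1-Low-FAPs. *Kcnj8* leaned the other way, at 0.37 and 0.73 CPM. Of 6 immune markers only *Lyz2* was tested, at 19.9 to 37.2 CPM in SCA1-High-FAPs against 6.28 to 15.2 CPM (log2 fold change −1.42, adjusted p = 0.0153, called in 6 of 8). *Adgre1* and *Cd52* were at 0 in all samples, and *Ptprc* had 1 count, in SCA1-High-FAPs replicate 1. *Cd68* had 3 to 14 counts per sample in SCA1-High-FAPs and 0 to 3 in SCA1-Low-FAPs. *Csf1r* had 5 to 12 counts in SCA1-High-FAPs and 5 to 21 in SCA1-Low-FAPs. None of 6 muscle satellite cell markers had enough counts to be tested, and *Pax7*, *Myf5* and *Myod1* were at 0. *Itga7*, the gene of the sorting antigen ITGA7, reached 18 counts (9.80 CPM) in SCA1-Low-FAPs replicate 2 and 11 counts (5.18 CPM) in SCA1-High-FAPs replicate 1. It was at 0 in SCA1-High-FAPs replicates 2 and 4 and SCA1-Low-FAPs replicate 1. *Des* had 0 to 5 counts per sample, and *Cdh15* had 1 count, in SCA1-Low-FAPs replicate 4. The part of these cells in the results below was not tested, and in bulk RNA fewer cells of a type and less RNA per cell cannot be told apart.

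The group did not move as a whole. *Smoc2* was higher in SCA1-Low-FAPs by 2.81-fold, and *Fn1* and *Postn* were higher in SCA1-High-FAPs by 1.55-fold and 1.5-fold. Called members were thus 3 of the 9 tested, beside 7.68% of all tested genes, with 1 towards SCA1-Low-FAPs, beside 3.32%, and 2 towards SCA1-High-FAPs, beside 4.36%. DESeq2 was run on all 15873 genes with at least 1 count, *Tnxb* among them, and called 4 of the 10, beside 6.71%. That share counts any gene left without an adjusted p as not called. EdgeR with the replicate number as a block called 2 of the 9, beside 6.85%, and 1 was left at an adjusted p under 0.01, beside 3.02%. The other 6 tested members did not pass. The median log2 fold change of the 9 was −0.46, with 6 values below 0 and 3 above. For 4 of the 9 the 2 cell states did not overlap in CPM, against 14.1% of all tested genes, and these were *Fn1*, *Postn* and *Sparcl1* with SCA1-High-FAPs above (7.46% of all tested genes) and *Smoc2* with SCA1-Low-FAPs above (6.67%). An unadjusted p under 0.05 was found for 6 of the 9, against 21.3% of all tested genes.

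**Figure D1:**
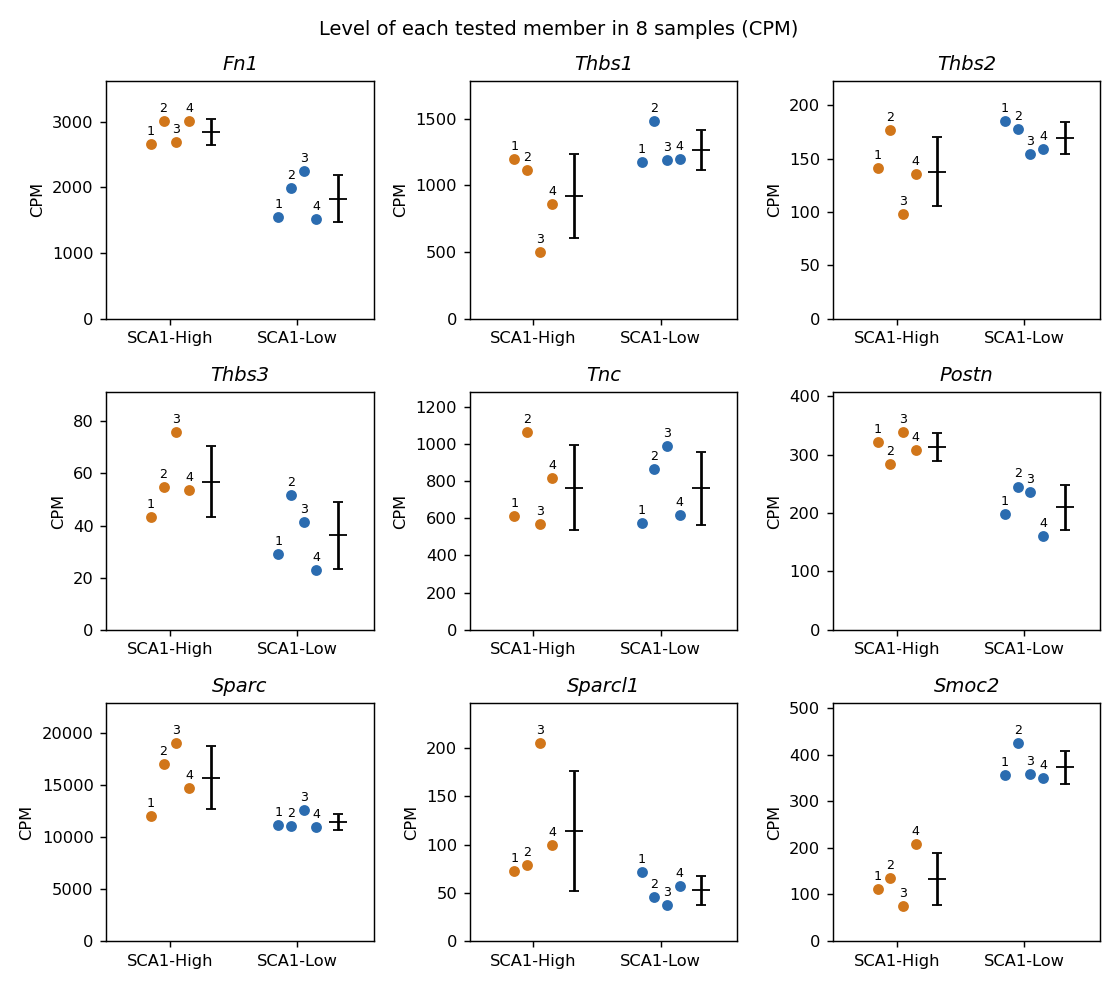
Level of each of the 9 tested members in the 8 samples, in CPM on a linear axis from 0; numbers beside the points are replicate numbers, and black bars are the mean ± SD of each cell state (n = 4). The SCA1-High-FAPs and SCA1-Low-FAPs points are fully apart for *Fn1*, *Postn*, *Sparcl1* and *Smoc2*, while those of *Tnc* cover the same range.

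*Fn1* (chromosome 1, 71585520 to 71653200, minus strand, GRCm38) encodes fibronectin, the ligand of integrin alpha-5 beta-1 and the scaffold of early matrix. Its level was 2660, 3016, 2683 and 3005 CPM in SCA1-High-FAPs replicates 1 to 4 and 1550.1, 1987, 2254 and 1523 CPM in SCA1-Low-FAPs replicates 1 to 4. Every SCA1-High-FAPs sample was above every SCA1-Low-FAPs sample, and the highest of the latter was replicate 3. The means were 2841 ± 196 and 1829 ± 354 CPM (SD, n = 4), which gives a log2 fold change of −0.64 (SE 0.15, 95% interval −0.96 to −0.31, adjusted p = 0.0165). By mean level *Fn1* was at rank 20 of the 10181 tested genes in SCA1-High-FAPs, and at rank 45 in SCA1-Low-FAPs. The call was lost without SCA1-High-FAPs replicate 2 (adjusted p = 0.0524), SCA1-Low-FAPs replicate 1 (0.0881) or SCA1-Low-FAPs replicate 4 (0.0612), with a log2 fold change between −0.76 and −0.56 in all 8 fits that left out a sample.

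*Postn* encodes periostin, a matricellular protein that binds integrins and takes part in collagen fibril formation. It was at 322, 283, 339 and 308 CPM in SCA1-High-FAPs replicates 1 to 4 and at 198, 246, 235 and 160.2 CPM in SCA1-Low-FAPs replicates 1 to 4. As for *Fn1*, the cell states did not overlap, and SCA1-Low-FAPs replicates 2 and 3 were the nearest to SCA1-High-FAPs. The means of 313 ± 23.6 and 210 ± 38.9 CPM (SD, n = 4) gave a log2 fold change of −0.58 (SE 0.16, 95% interval −0.91 to −0.25, adjusted p = 0.0286). This call was near the threshold. It was lost without SCA1-High-FAPs replicate 1 (adjusted p = 0.0631), 3 (0.0602) or 4 (0.0513), without SCA1-Low-FAPs replicate 1 (0.101) or 4 (0.102), and with the replicate number as a block (0.0518), while DESeq2 gave 0.0108.

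*Postn* was the only called member among the 6 of 10 for which RefSeq promoter sequences of GRCm38 were at hand (*Thbs2*, *Thbs3*, *Tnc*, *Tnxb*, *Postn* and *Sparc*, with 8 annotated starts). *Fn1*, *Thbs1*, *Sparcl1* and *Smoc2* were not matched. The 250 bases before the start of *Postn* nearest to the 5′ end of the gene (chr3:54360857-54361106, plus strand) are shown because they hold TATAAA close to the start. Those of *Thbs2* (chr17:14694263-14694512, minus strand) are shown beside them as those of a member that was not called. Both are written 5′ to 3′ on the strand of the gene, and capitals mark the matches to TATAAA and CCAAT on either strand.
*Postn*: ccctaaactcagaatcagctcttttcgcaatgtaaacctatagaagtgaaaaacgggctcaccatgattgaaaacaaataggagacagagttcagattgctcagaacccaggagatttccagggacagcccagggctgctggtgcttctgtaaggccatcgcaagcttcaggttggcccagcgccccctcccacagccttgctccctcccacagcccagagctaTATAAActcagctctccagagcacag
*Thbs2*: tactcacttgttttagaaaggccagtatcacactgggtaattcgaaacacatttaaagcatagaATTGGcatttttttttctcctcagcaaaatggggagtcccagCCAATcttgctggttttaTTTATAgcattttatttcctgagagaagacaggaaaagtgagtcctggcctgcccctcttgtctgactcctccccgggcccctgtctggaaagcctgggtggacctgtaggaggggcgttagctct
In *Postn* the match to TATAAA begins 26 bases before the start and no CCAAT was found. In *Thbs2* the matches lie on the minus strand of the gene at −126 for TATAAA and −186 for CCAAT, with a further CCAAT on the plus strand at −144. Among all 32851 promoter windows of 250 bases, 12.4% hold TATAAA and 33.8% hold CCAAT on either strand. Searches for GGGCGG and TGANTCA, which stand in 32.7% and 6.75% of all windows, gave no match in these 2 sequences. The other annotated start of *Postn* had no match to any of these motifs. *Tnc*, which was not called, held TATAAA before both of its annotated starts, at −126 and −205. The matches thus do not set the called member apart. These matches describe the letters and not the binding of any factor.

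*Smoc2* (chromosome 17, 14279506 to 14404790, plus strand), which encodes a secreted calcium-binding protein of the SPARC family, showed the largest change of the tested members. It stood at 111, 136, 75.6 and 208 CPM in SCA1-High-FAPs replicates 1 to 4 and at 357, 425, 359 and 350.3 CPM in SCA1-Low-FAPs replicates 1 to 4, on 181 to 1327 counts. The lowest SCA1-Low-FAPs sample was above the highest SCA1-High-FAPs sample, and the latter spread widely, from replicate 3 at the bottom to replicate 4 at the top. The means were 133 ± 56.1 and 373 ± 35.0 CPM (SD, n = 4), and the log2 fold change was 1.49 (SE 0.24, 95% interval 0.98 to 2.00, adjusted p = 0.0019). *Smoc2* was called in all 8 fits that left out 1 sample, with a log2 fold change between 1.29 and 1.80. Its rank by mean level was 1426 of the tested genes in SCA1-High-FAPs, but 397 in SCA1-Low-FAPs.

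*Sparc* encodes osteonectin, a collagen-binding protein that is made in quantity by cells that lay down matrix. Its level was 12039, 16975, 19018 and 14700.0 CPM in SCA1-High-FAPs replicates 1 to 4, and 11135, 11060.0, 12529 and 10921 CPM in SCA1-Low-FAPs replicates 1 to 4. SCA1-High-FAPs replicate 1 lay below SCA1-Low-FAPs replicate 3, so the cell states overlapped by these samples. Among the tested genes its rank was 2 in SCA1-High-FAPs, where it held 1.24% to 1.85% of all counts on genes, and 3 in SCA1-Low-FAPs, where it held 1.04% to 1.27%. The difference was not called (log2 fold change −0.46, SE 0.16, 95% interval −0.80 to −0.12, adjusted p = 0.0909), except without SCA1-High-FAPs replicate 1, where it was −0.56 with an adjusted p of 0.0307.

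*Sparcl1*, the gene of a close relative of SPARC also known as hevin, was far less abundant. It stood at 72.0, 79.1, 205 and 99.4 CPM in SCA1-High-FAPs replicates 1 to 4 and at 71.1, 45.2, 36.8 and 57.0 CPM in SCA1-Low-FAPs replicates 1 to 4. The cell states did not overlap, but SCA1-High-FAPs replicate 1 and SCA1-Low-FAPs replicate 1 almost met, and SCA1-High-FAPs replicate 3 was far above the rest. Its log2 fold change of −1.12 (SE 0.32, 95% interval −1.83 to −0.42) just missed the threshold (adjusted p = 0.0547). It was −0.67 without SCA1-High-FAPs replicate 3 (adjusted p = 0.0963). It passed without SCA1-High-FAPs replicate 1 (0.0301) or 2 (0.0426), and with DESeq2 (0.00833). It also passed with no filter beyond 1 count (0.0388) and with a filter of 10 counts in every sample (0.0477).

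Thrombospondin-1 binds CD36, CD47 and integrins, and is also known as an activator of latent TGF-beta. *Thbs1* was at 1202, 1116, 498 and 858 CPM in SCA1-High-FAPs replicates 1 to 4 and at 1177, 1487, 1193 and 1199 CPM in SCA1-Low-FAPs replicates 1 to 4. The SCA1-Low-FAPs samples were close together apart from replicate 2, while SCA1-High-FAPs replicate 1 reached their level and replicate 3 was the lowest of all. The difference was not called (log2 fold change 0.46, 95% interval −0.00002 to 0.92, adjusted p = 0.235), and it was 0.25 without SCA1-High-FAPs replicate 3.

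*Thbs2*, whose product is known to limit the formation of vessels, was at 141, 177, 97.7 and 135 CPM in SCA1-High-FAPs replicates 1 to 4 and at 186, 178, 154 and 159 CPM in SCA1-Low-FAPs replicates 1 to 4. The overlap came from SCA1-High-FAPs replicate 2, and the difference was not called (log2 fold change 0.30, 95% interval −0.07 to 0.66, adjusted p = 0.355). *Thbs2* is the neighbour of *Smoc2* on chromosome 17. The genes lie 260709 bases apart with 2 annotated genes between them, neither of them protein coding. *Thbs3* encodes a thrombospondin of the pentameric class and was the least abundant of the tested members. It was at 43.3, 54.7, 76.0 and 53.5 CPM in SCA1-High-FAPs replicates 1 to 4 and at 29.0, 51.7, 41.2 and 23.0 CPM in SCA1-Low-FAPs replicates 1 to 4. The cell states overlapped between 43.3 and 51.7 CPM, and the log2 fold change of −0.66 (95% interval −1.22 to −0.11) was not called (adjusted p = 0.145). The 3′ end of *Thbs3* is overlapped on the opposite strand by *Mtx1*, the gene of a mitochondrial membrane protein, with a log2 fold change of 0.15 (adjusted p = 0.814). How strand was handled in the counting is not stated, so reads of these genes could not be told apart if it was ignored.

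The tenascins are large modular proteins that modulate cell adhesion, and tenascin-C in particular is known to appear in injured muscle. *Tnc* was at 609, 1064, 566 and 814 CPM in SCA1-High-FAPs replicates 1 to 4 and at 571, 864, 987 and 618 CPM in SCA1-Low-FAPs replicates 1 to 4. Both cell states held low and high samples over the same range. The log2 fold change was −0.01 (SE 0.21, adjusted p = 0.991), and its 95% interval of −0.46 to 0.45 leaves room for a change of either sign within those bounds. *Tnxb*, which encodes the tenascin of connective tissue, had 0 counts in all 4 SCA1-High-FAPs samples and in SCA1-Low-FAPs replicates 2 and 3, with 2 counts in replicate 1 and 5 counts in replicate 4. Both cell states were at or near the limit of 3 counts per library, so no fold change is given.

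Because depth and scaling drop out of the ratio of 2 genes within a sample, 6 such ratios were taken as a description, on the log2 scale of counts and without a test. The ratio of *Smoc2* to *Smoc1*, its nearest paralogue, was 1.22, 1.82, 0.33 and 2.98 in SCA1-High-FAPs replicates 1 to 4 and 3.91, 3.70, 4.22 and 4.47 in SCA1-Low-FAPs replicates 1 to 4. *Smoc2* counts therefore exceeded *Smoc1* counts in all 8 samples, and by more in each SCA1-Low-FAPs sample than in any SCA1-High-FAPs sample. *Smoc1* itself was at 26.4 to 60.1 CPM in SCA1-High-FAPs and 15.8 to 32.7 CPM in SCA1-Low-FAPs, so both genes enter the shift of the ratio (log2 fold change of *Smoc1* −0.93, adjusted p = 0.0636; 0.0499 with DESeq2). The ratio of *Smoc2* to *Fn1* was likewise apart, at −5.15 to −3.85 and −2.65 to −2.12. It had to be, as the cell states did not overlap for either gene and differed in opposite directions. The ratio of *Thbs1* to *Fn1* was also apart, at −2.43 to −1.15 in SCA1-High-FAPs and −0.92 to −0.35 in SCA1-Low-FAPs, although *Thbs1* itself was not called. The other 3 ratios overlapped. That of *Fn1* to *Postn* was 3.18 ± 0.20 and 3.12 ± 0.15 (SD, n = 4), that of *Thbs1* to *Thbs2* was 2.69 ± 0.31 and 2.90 ± 0.17, and that of *Sparc* to *Sparcl1* was 7.22 ± 0.51 and 7.81 ± 0.48. The 10 members together held 1.77% to 2.32% of the counts in SCA1-High-FAPs and 1.43% to 1.81% in SCA1-Low-FAPs, of which *Sparc* alone made up 67.7% to 80.7%.

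**Figure D2:**
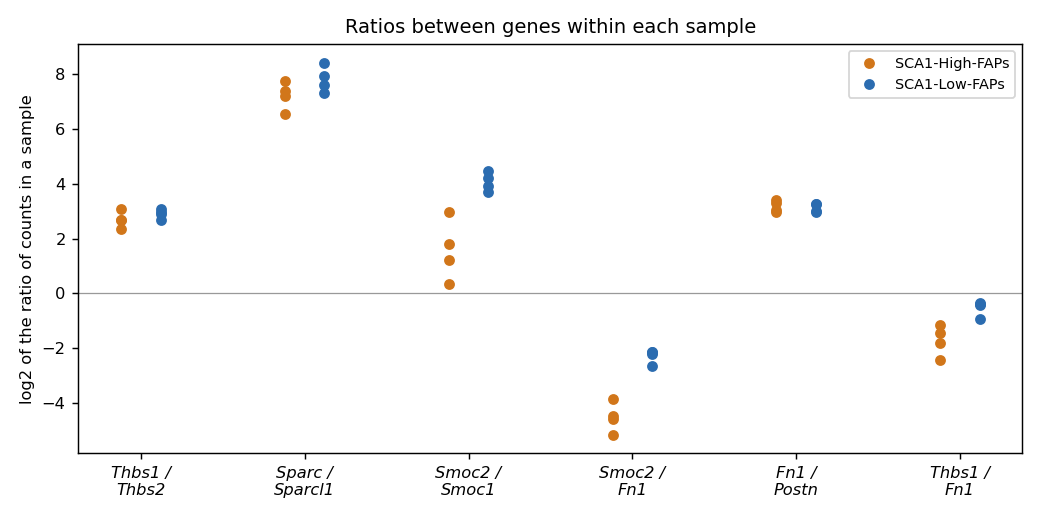
The 6 ratios between genes within each sample, as log2 of the ratio of counts; each point is 1 sample, with SCA1-High-FAPs in orange and SCA1-Low-FAPs in blue. The ratios of *Smoc2* to *Smoc1*, *Smoc2* to *Fn1* and *Thbs1* to *Fn1* are apart between the cell states, and the other 3 overlap.

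Nearness of profiles was measured as the root mean square difference of log2 CPM over the 8 samples, after each gene's mean was removed. The values were not scaled, so the measure depends on the size of the changes as well as on their pattern. Among the members *Fn1* and *Postn* were the nearest (0.157), followed by *Thbs1* and *Thbs2* (0.238). Outside the members, 6572 genes with a mean of at least 20 CPM were compared. The nearest to *Fn1* were *Setd1b* (0.0917), which encodes a histone methyltransferase, and *Prnp* (0.0946), the prion protein gene. The nearest to *Postn* were *Tmem59* (0.102) and *Psme1* (0.103), which encodes a proteasome activator subunit. The nearest to *Smoc2* were *Fosl1* (0.223), which encodes the AP-1 protein FRA-1, and *Hhipl1* (0.273). As *Smoc2* changed more than *Fn1* or *Postn*, these distances do not tell whether its pattern was less shared.

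Of 17 other matricellular genes, 12 were tested and 2 were called, beside 7.68% of all tested genes. Both were higher in SCA1-High-FAPs, beside 4.36% of all tested genes, and the median log2 fold change of the 12 was 0.10. *Comp*, the gene of the cartilage thrombospondin, was at 64.5, 103, 125 and 80.3 CPM in SCA1-High-FAPs replicates 1 to 4 and 29.5, 30.5, 48.2 and 31.4 CPM in SCA1-Low-FAPs replicates 1 to 4, with no overlap (log2 fold change −1.41, SE 0.24, adjusted p = 0.0017). *Ccn3*, of the CCN family, was at 153, 48.8, 61.8 and 76.6 CPM and at 20.8, 26.7, 38.1 and 20.3 CPM, again with no overlap (log2 fold change −1.68, SE 0.34, adjusted p = 0.0076). *Thbs4*, the remaining thrombospondin, was at 287 ± 89.6 and 315 ± 158 CPM (SD, n = 4) and was not called.

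Of 15 receptors of these proteins, 9 were tested and 3 were called, beside 7.68% of all tested genes. The median log2 fold change of the 9 was 0.08. *Itga5*, the fibronectin receptor subunit, was higher in SCA1-Low-FAPs, the opposite direction to *Fn1*. It was at 19.3, 18.1, 12.9 and 10.6 CPM in SCA1-High-FAPs replicates 1 to 4 and at 54.1, 33.2, 22.5 and 49.6 CPM in SCA1-Low-FAPs replicates 1 to 4, without overlap (log2 fold change 1.39, SE 0.32, adjusted p = 0.0116). The call was lost without SCA1-Low-FAPs replicate 1 (0.0540) or 4 (0.0548), whose levels were the highest. *Itga9*, a subunit that binds tenascin-C, was higher in SCA1-High-FAPs, at 98.4 to 170 CPM against 41.4 to 96.1 CPM (log2 fold change −1.04, adjusted p = 0.0208, and lost without SCA1-High-FAPs replicate 3 (0.0567) or 4 (0.0536) or SCA1-Low-FAPs replicate 1 (0.0784), 2 (0.0547) or 4 (0.0628)). *Cd36*, a thrombospondin receptor that is also a fatty acid transporter of adipocytes, was higher in SCA1-High-FAPs. It was at 9.53 to 47.1 CPM against 2.64 to 4.35 CPM, the latter on only 6 to 13 counts per sample (log2 fold change −2.81, adjusted p = 0.0025). The adipocyte marker sum given above moved the same way. *Itgb1*, the partner of both integrin subunits, was at 750 ± 77.4 and 816 ± 89.0 CPM (SD, n = 4) and was not called.

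Among 12 genes of fibronectin assembly and adhesion, 11 were tested, with a median log2 fold change of 0.12. Of these 1 was called, beside 7.68% of all tested genes. The called gene was *Fbln1*, which encodes the fibronectin-binding protein fibulin-1, at 30.3 to 79.7 CPM in SCA1-High-FAPs and 17.7 to 31.0 CPM in SCA1-Low-FAPs (log2 fold change −1.03, adjusted p = 0.0441). The cell states overlapped, and the call was lost in 6 of the 8 fits that left out a sample, with the smallest change of −0.67 (adjusted p = 0.182) without SCA1-High-FAPs replicate 3. The others were SCA1-High-FAPs replicates 1 (0.0543) and 4 (0.0564) and SCA1-Low-FAPs replicates 1 (0.127), 3 (0.0605) and 4 (0.139), and the replicate block gave 0.0841.

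The 9 genes of the TGF-beta pathway that were examined were all tested, with a median log2 fold change of −0.26. Of these 1 was called, beside 7.68% of all tested genes. *Tgfbr3*, the coreceptor betaglycan, was higher in SCA1-High-FAPs, at 165 to 258 CPM against 96.9 to 167 CPM (log2 fold change −0.79, adjusted p = 0.0171). The call of *Tgfbr3* was lost without SCA1-High-FAPs replicate 1 (0.0620) or SCA1-Low-FAPs replicate 1 (0.0575), 2 (0.0649) or 4 (0.0647). The ligand genes *Tgfb1*, *Tgfb2* and *Tgfb3*, at log2 fold changes of −0.26, −0.28 and 0.50, were not called.

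**Figure D3:**
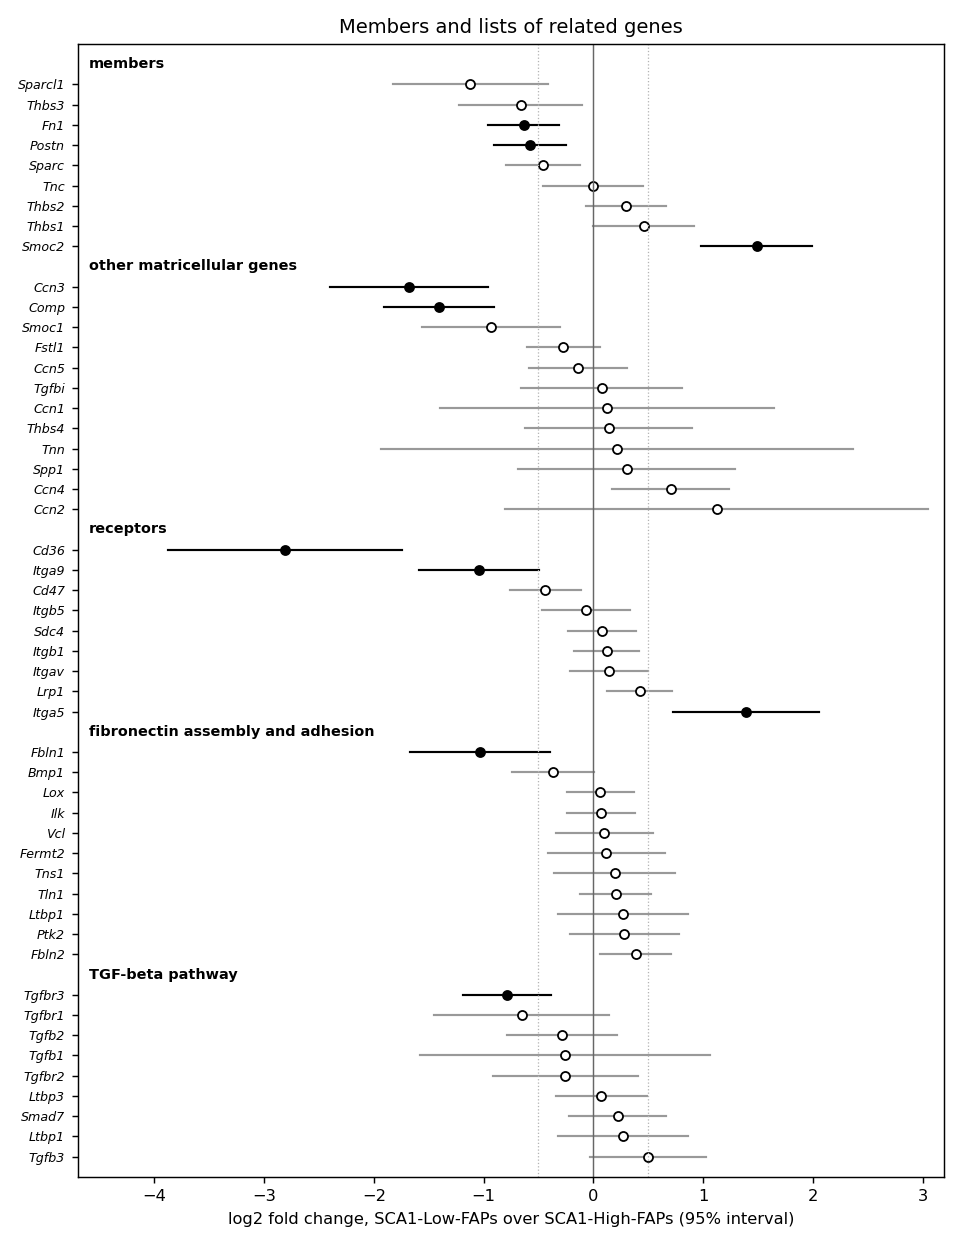
Log2 fold changes between the cell states, positive towards SCA1-Low-FAPs, with 95% intervals for the 9 tested members and the tested genes of 4 lists of related genes (*Ltbp1* is in 2 of them); filled points were called, dotted lines mark the limit of 0.5 in size. *Smoc2* and *Itga5* are the called genes on the SCA1-Low-FAPs side, and 8 called genes stand on the SCA1-High-FAPs side.

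**Figure D4:**
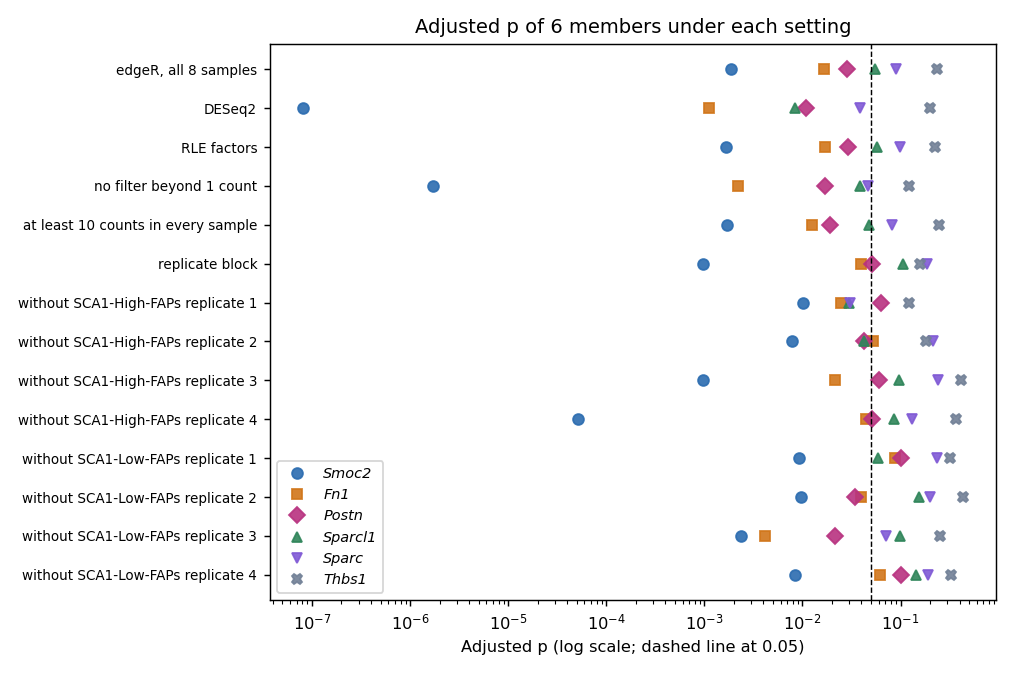
Adjusted p-values of 6 members (log axis, dashed line at 0.05) in edgeR with all 8 samples, under 5 other settings and with each sample left out. *Smoc2* stays to the left of the line throughout, at 0.01 at most, whereas *Fn1*, *Postn*, *Sparcl1* and *Sparc* fall on both sides of it and *Thbs1* stays to the right.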

How the data were processed

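RNA from 4 SCA1-High-FAPs and 4 SCA1-Low-FAPs samples was made into QuantSeq 3′ FWD libraries. The authors trimmed reads with bbduk, aligned them with STAR to mm10 and counted them with htseq-count on Ensembl genes, and deposited raw counts per gene without normalisation. Non-unique alignments and reads on no gene were tallied apart by the authors and left out of library sizes here. The former made up 37.5% to 39.7% of the tally in SCA1-High-FAPs and 40.8% to 43.3% in SCA1-Low-FAPs. The latter made up 9.35% to 10.2% and 7.87% to 8.83%. Both were fully apart between the cell states, and their part in the results was not tested. Strand setting and molecular identifiers are not given in the sources used here. Names and positions came from GENCODE on GRCm38, which named 30934 of 31053 identifiers.

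Counts were compared with edgeR 4.0.16 (R 4.3.3; TMM factors, filterByExpr with minima of 10 and 15 counts, robust quasi-likelihood test, no block). SE was taken as the size of the fold change on the log2 scale over the root of F. DESeq2 1.42.0 and the other alternatives are given with the closing remarks; the fits were tested on simulated data. Named genes were the 10 members, up to 4 called genes with the largest change in each list of related genes (all where 5 or fewer), the 2 nearest profiles of each called member, and cell type markers; *Smoc1*, *Thbs4*, *Itgb1*, *Ccn1*, *Ccn2* and the *Tgfb* genes were added after their values were seen. Members and lists were chosen with earlier results of these data known. A further gene of the TGF-beta list is not reported here. Promoters came from a RefSeq table. Python 3.11.15 with matplotlib 3.10.9 and pandas 2.3.3 made tables and figures. The p-values measure the spread between these samples only.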

Additional observations from a re-analysis of the deposited data

Results flagged for a closer look

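Within each cell state, a sample was singled out when its gap to the nearest other sample, divided by the range of the group, was above Dixon's critical value for 4 samples. Chance singles out about 1 in 20 groups, and 4 of 35 were found here. *Thbs1* was at 1487 CPM in SCA1-Low-FAPs replicate 2, with the next sample at 1199. *Smoc2* was at 425 CPM in the same sample, with the next at 359. *Sparc* at 12529 CPM and *Comp* at 48.2 CPM were highest in SCA1-Low-FAPs replicate 3, where the next samples were at 11135 and 31.4 CPM.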

How the results depend on the processing

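Other settings were DESeq2, RLE factors, a block for the replicate number, no filter beyond 1 count, a filter of 10 counts in every sample, an adjusted p under 0.01, and each sample left out in turn. *Smoc2*, *Comp*, *Ccn3* and *Cd36* kept their call and direction under all that gave a value. With the filter of 10 counts in every sample *Cd36* was not tested. The number of called genes was 782; it ranged from 410 to 1017 with a sample left out (410 without SCA1-Low-FAPs replicate 4, 417 without replicate 1 and 1017 without replicate 3) and was 307 at an adjusted p under 0.01, 1065 with DESeq2 and 697 with the block. Called members, 3 of 9, ranged from 1 to 4 with a sample left out (only *Smoc2* without SCA1-Low-FAPs replicate 1 or 4) and were 1 at 0.01, again *Smoc2*. They were 4 with either other filter, where *Sparcl1* was called too. Called other matricellular genes, 2 of 12, ranged from 2 to 3, and were 4 of 15 with no filter. Called receptors, 3 of 9, ranged from 1 to 3 and were 1 at 0.01. Called fibronectin assembly genes, 1 of 11, ranged from 0 to 1 and were 0 with the block and at 0.01. Called TGF-beta genes, 1 of 9, ranged from 0 to 1 and were 0 at 0.01. *Tnc* changed sign to 0.0082 with no filter, and between −0.17 and 0.20 with a sample left out (0.20 and 0.03 without SCA1-High-FAPs replicates 2 and 4, 0.11 and 0.07 without SCA1-Low-FAPs replicates 1 and 4). The cause of these changes was not tested.

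Labels do not tie equal replicate numbers to a mouse. Once group means were removed, same-numbered samples correlated across genes at −0.0165, 0.0067, −0.0137 and −0.0502. With so few samples per group, such values cannot decide whether equal numbers mark the same mouse. The main fit has no block, so any pairing by mouse is left out of its p-values. With the replicate block 2 members were called, *Fn1* (adjusted p = 0.0391) and *Smoc2* (0.000967), and *Postn* was not (0.0518). Depth limits *Tnxb*, at 0 to 5 counts per sample.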

Other observations

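SCA1-High-FAPs replicate 3 stood at an end of its cell state for most members, a pattern noticed after the values were seen and not tested. Every gene has a lowest and a highest among 4 samples. SCA1-High-FAPs replicate 1 was also at an end for *Fn1*, *Thbs1*, *Thbs3*, *Sparc* and *Sparcl1*. Replicate 2 was at an end for *Fn1*, *Thbs2*, *Tnc* and *Postn*, and replicate 4 for *Smoc2*. Replicate 3 was the lowest of the 4 samples for *Thbs1* (498 CPM), *Thbs2* (97.7 CPM), *Tnc* (566 CPM) and *Smoc2* (75.6 CPM), and the highest for *Thbs3* (76.0 CPM), *Postn* (339 CPM), *Sparc* (19018 CPM) and *Sparcl1* (205 CPM). *Ccn2*, which encodes the connective tissue growth factor CTGF, was at 44.3 CPM in this sample, against 933, 429 and 626 CPM in replicates 1, 2 and 4 and 809 to 1528 CPM in SCA1-Low-FAPs. *Ccn1*, which encodes CYR61, was at 56.8 CPM, against 357, 116 and 195 CPM in replicates 1, 2 and 4. Of the tested FAP markers, *Pdgfra* (291 CPM), *Dcn*, the decorin gene (1037 CPM), and *Lum* (44.7 CPM) were highest there. *Col1a1* (5681 CPM) was at its lowest of the SCA1-High-FAPs samples there. *Col3a1* (5227 CPM) and *Ly6a* (645 CPM) were at neither end of the SCA1-High-FAPs samples. Without this sample the log2 fold change was 1.29 for *Smoc2* (adjusted p = 0.000975), 0.25 for *Thbs1* (0.415), 0.16 for *Thbs2* (0.652) and −0.67 for *Sparcl1* (0.0963).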
